A study of Macaca mulatta with 27 samples.

Results

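t2iLGöY and TL2i are culture protocols meant to bring primate pluripotent stem cells (PSCs) from the primed to the naive state, and the transcriptomes that they gave in rhesus macaque cells were compared here. The comparison takes the 3 bulk RNA-seq libraries labelled t2iLGöY and the 3 labelled TL2i, out of 27 libraries in the series, and covers all 17967 gene symbols of the count tables. Cells of both groups came from LyonES-tGFP-(S3), a clonal line of rhesus embryonic stem cells that carries a tauGFP reporter under the ubiquitous CAG promoter and STAT3-ERT2, a STAT3 protein that becomes active when tamoxifen is added. In TL2i, tamoxifen was given together with the cytokine LIF and with inhibitors of the kinases MEK and GSK3β. t2iLGöY combines inhibitors of the same type and LIF with the protein kinase C inhibitor Gö6983 and the ROCK inhibitor Y-27632. It was applied without tamoxifen, so that STAT3-ERT2 stayed inactive. Both groups thus hold the same transgenes and rest on a single clone, and the number of passages in each medium is not given in the sources used here.

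The primed state resembles the epiblast close to gastrulation, and the naive state resembles the earlier epiblast of the blastocyst. MEK inhibition blocks the ERK signal that pushes PSCs towards differentiation, GSK3 inhibition stabilizes β-catenin and so raises Wnt target genes, and LIF acts through JAK kinases on STAT3. Protein kinase C inhibition is used to hold human PSCs in the naive state, and ROCK inhibition relaxes the actomyosin cytoskeleton and keeps dissociated PSCs alive. OCT4 (POU5F1), SOX2 and NANOG are the core factors of pluripotency in both states.

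The t2iLGöY libraries held 13617437, 13849980 and 12827393 counts, and the TL2i libraries held 19482749, 16354474 and 13359671. Levels are given below in CPM, the usual unit of counts scaled to library size, after TMM scaling over all 27 libraries, in the order of libraries 1, 2 and 3, and they are compared between groups, not between genes. Fold changes are t2iLGöY over TL2i on the log2 scale ± their standard error, from edgeR's quasi-likelihood test on these 6 libraries, and "higher", "lower" and "changed" are used of differences with an adjusted p under 0.05. The labels do not say whether the 3 libraries of a group came from separate cultures, so p-values measure only the spread between these libraries. That spread was unequal. Among genes with a mean of 5 to 20 counts, the variance between libraries was 12.6 times the mean in t2iLGöY (1251 genes) and 3.32 times the mean in TL2i (1433 genes), where counting alone gives a value near 1. A t2iLGöY library had 49 to 68 genes with exactly 1 count and a TL2i library 265 to 348, although their numbers of genes with 11 to 20 counts were closer (628 to 659 and 728 to 790). Low counts in t2iLGöY were therefore less precise than their size implies. Bounds and intervals below, which use a floor of 3 counts over the 3 libraries of a group, cover counting error only and understate the uncertainty. Correlations of log2 CPM over the genes tested were 0.962 to 0.973 between t2iLGöY libraries and 0.989 to 0.991 between TL2i libraries. Library 2 of each group and TL2i library 1 stood apart for sets of genes that are given with the gene lists below.

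POU5F1 and NANOG were far below their primed levels in both groups and SOX2 was present in both, so the libraries are called by their protocols here and not by a cell state. POU5F1 had 1.63, 1.81 and 0.07205 CPM in t2iLGöY and 7.67, 5.15 and 6.49 CPM in TL2i (log2 fold change -2.43 ± 0.72, adjusted p = 0.015 by edgeR, not called without TL2i library 1 or 3, edgeR adjusted p = 0.060 to 0.079), against 1127, 1180.4 and 1277 CPM as the lowest, median and highest of 6 primed libraries. NANOG was at 0 counts in the 3 t2iLGöY libraries and had 0.537, 0.0585 and 0.353 CPM in TL2i, where the primed libraries had 105, 137 and 156 CPM. SOX2, which also marks neural progenitors, was present in both groups, with 99.2, 117 and 111 CPM in t2iLGöY and 88.3, 86.7 and 92.1 CPM in TL2i (log2 fold change 0.31 ± 0.10, not called without t2iLGöY library 2 or any TL2i library, edgeR adjusted p = 0.051 to 0.072), and it had 213, 267 and 341 CPM in primed cells. DNMT3B, the de novo DNA methyltransferase that is high in primed PSCs, had 80.8, 74.7 and 73.8 CPM in t2iLGöY and 109.6, 103 and 118 CPM in TL2i (log2 fold change -0.51 ± 0.10), against 2939, 3056 and 3485 CPM in primed cells. A lower level of these genes can mean fewer cells that express them or less RNA in each cell, and bulk libraries cannot tell these apart.

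Of 13731 genes tested, 6628 were called changed, which is 48.3% of them. A total of 3270 genes (23.8%) were higher in t2iLGöY and 3358 (24.5%) were lower. With an absolute log2 fold change of at least 1 as well, 2985 genes remained (21.7%), 1467 higher (10.7%) and 1518 lower (11.1%). Counts of list members below are to be read against 23.8% and 24.5%. Of the genes tested, 204 were at 0 counts in the 3 t2iLGöY libraries and 8 in the 3 TL2i libraries. A gene at 0 in 1 group was tested only because of its counts in the other. Over all gene symbols, a t2iLGöY library had counts for 13407 to 13977 genes and a TL2i library for 15295 to 15700. Genes with exactly 1 count were also fewer in t2iLGöY, so these tallies do not measure how many genes were switched off.

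**Figure D1:**
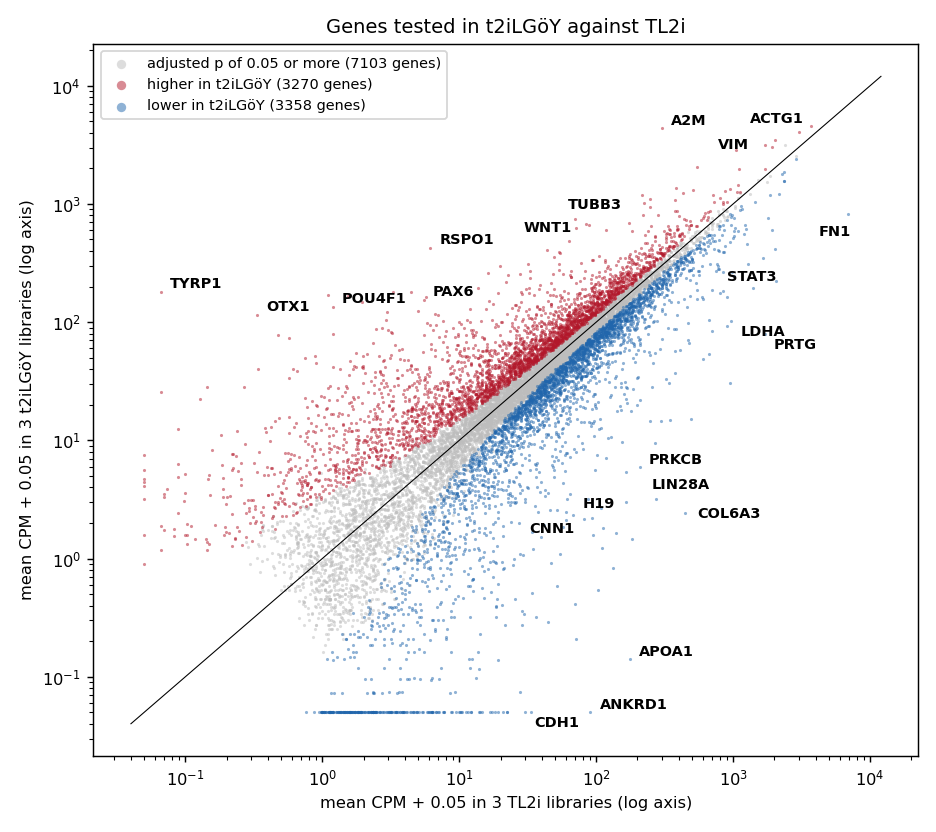
Each point is 1 of 13731 genes tested, with its mean CPM in TL2i on the x axis and in t2iLGöY on the y axis (log axes, 0.05 CPM added), red where higher in t2iLGöY, blue where lower and grey where not called. TYRP1, OTX1, POU4F1 and RSPO1 lie far above the line of equal levels, and ANKRD1, CDH1 and APOA1 lie at or near 0 in t2iLGöY.

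The 15 genes furthest above TL2i (mean of at least 10 CPM and groups that did not overlap) included pigment, forebrain and neuropeptide genes. TYRP1, a melanosome protein of pigment synthesis, had 222, 91.4 and 225 CPM in t2iLGöY and 0.0488, 0 and 0 CPM in TL2i, a ratio of 9222 with a counting interval of 1655 to 364280.00. OTX1, a homeobox factor of the forebrain and midbrain, had 119.7, 133 and 94.1 CPM in t2iLGöY and 0.342, 0.234 and 0.282 CPM in TL2i (log2 fold change 8.62 ± 0.24). TTR, which encodes the thyroid hormone carrier transthyretin of liver and choroid plexus, had 152, 169 and 123 CPM in t2iLGöY and 2.29, 1.93 and 1.48 CPM in TL2i (log2 fold change 6.27 ± 0.19). Each of the 3 genes was thus above 90 CPM in each t2iLGöY library and under 3 CPM in each TL2i library. The neuropeptide precursor gene PENK had 179.6, 189 and 134 CPM in t2iLGöY and 1.32, 1.29 and 1.83 CPM in TL2i (log2 fold change 6.86 ± 0.20). The neuropeptide ADCYAP1 had 70.01, 82.2 and 65.995 CPM in t2iLGöY and 0.488, 0.234 and 0.846 CPM in TL2i (log2 fold change 7.17 ± 0.27). SCG2, a granin of neuroendocrine vesicles, had 80.8, 67.6 and 85.5 CPM in t2iLGöY and 0.537, 0.234 and 0.494 CPM in TL2i (log2 fold change 7.51 ± 0.24). These neuroendocrine genes were at or under 2 CPM in the TL2i libraries. Further members were the homeobox genes LHX2 (log2 fold change 7.01 ± 0.39), SHOX2 (log2 fold change 6.18 ± 0.24) and BARHL2 (a ratio of 1323 with a counting interval of 237 to 52301), MAB21L2 (log2 fold change 7.33 ± 0.17), the POU factor POU4F1, the zinc-finger factor BCL11B (log2 fold change 6.19 ± 0.23), the melanosome glycoprotein GPNMB (log2 fold change 7.10 ± 0.47), the ion exchanger SLC24A4 (log2 fold change 8.06 ± 0.59) and CCDC60 (log2 fold change 8.38 ± 0.61).

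The 15 genes furthest below TL2i by the same rule included epithelial, endodermal, matrix and coagulation genes. ANKRD1, a target of the YAP coactivator, was at 0 in t2iLGöY and had 69.1, 114 and 88.8 CPM in TL2i, at least 1297-fold lower. CDH1 (E-cadherin), the adhesion molecule of epithelia and of PSC colonies, was at 0 in t2iLGöY against 22.9, 36.6 and 30.8 CPM in TL2i, at least 429-fold lower. SOX17, a factor of endoderm and germ cells, was also at 0, against 15.4, 28.4 and 22.9 CPM, at least 315-fold lower. None of the 3 t2iLGöY libraries had a count for these genes. APOA1, the main apolipoprotein of HDL, had 128, 220.4 and 179 CPM in TL2i and 0.272, 0 and 0 CPM in t2iLGöY (log2 fold change -10.76 ± 0.41). COL6A3, a collagen VI chain, had 341, 593 and 393 CPM in TL2i and 2.65, 0.335 and 4.18 CPM in t2iLGöY (log2 fold change -7.53 ± 0.41). Another 9 of these genes were the coagulation genes F3 (log2 fold change -7.52 ± 0.58) and F5 (log2 fold change -7.33 ± 0.60), the PSC marker ZFP42, the metalloprotease MEP1A, THBS4, the GABA receptor subunit GABRP (log2 fold change -8.71 ± 0.49), LRRN4 (log2 fold change -7.64 ± 0.48), the calcium-binding S100A16 (log2 fold change -7.51 ± 0.59) and ACTN3. Of these, MEP1A, THBS4 and ZFP42 were at 0 in t2iLGöY, at least 477-fold, at least 324-fold and at least 301-fold lower, and ACTN3 was lower by a ratio of 1198 with a counting interval of 215 to 47351.

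The changed genes of highest mean level were of another kind, and apart from FN1 their log2 fold changes were under 1 in size. Higher in t2iLGöY were the cytoskeletal genes ACTG1 (log2 fold change 0.31 ± 0.07), TUBB (log2 fold change 0.44 ± 0.08), ACTB (log2 fold change 0.69 ± 0.07) and VIM (log2 fold change 0.89 ± 0.08) and the translation factor EIF4G2 (log2 fold change 0.82 ± 0.07). Lower were fibronectin FN1 (log2 fold change -3.05 ± 0.19), the actin crosslinker FLNA (log2 fold change -0.25 ± 0.09, not called without any t2iLGöY library or TL2i library 2 or 3, edgeR adjusted p = 0.056 to 0.14), the progenitor filament NES (log2 fold change -0.33 ± 0.07), the elongation factor EEF2 (log2 fold change -0.33 ± 0.10, not called without TL2i library 3, edgeR adjusted p = 0.072) and the chaperone HSP90AB1 (log2 fold change -0.58 ± 0.09). FLNA is the only gene of these 10 whose groups overlapped, with 2503, 2245 and 2383 CPM in t2iLGöY and 2478, 3138 and 2983 CPM in TL2i. Actin and tubulin genes have near-identical copies between which reads can be divided, so their values are uncertain.

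**Figure D2:**
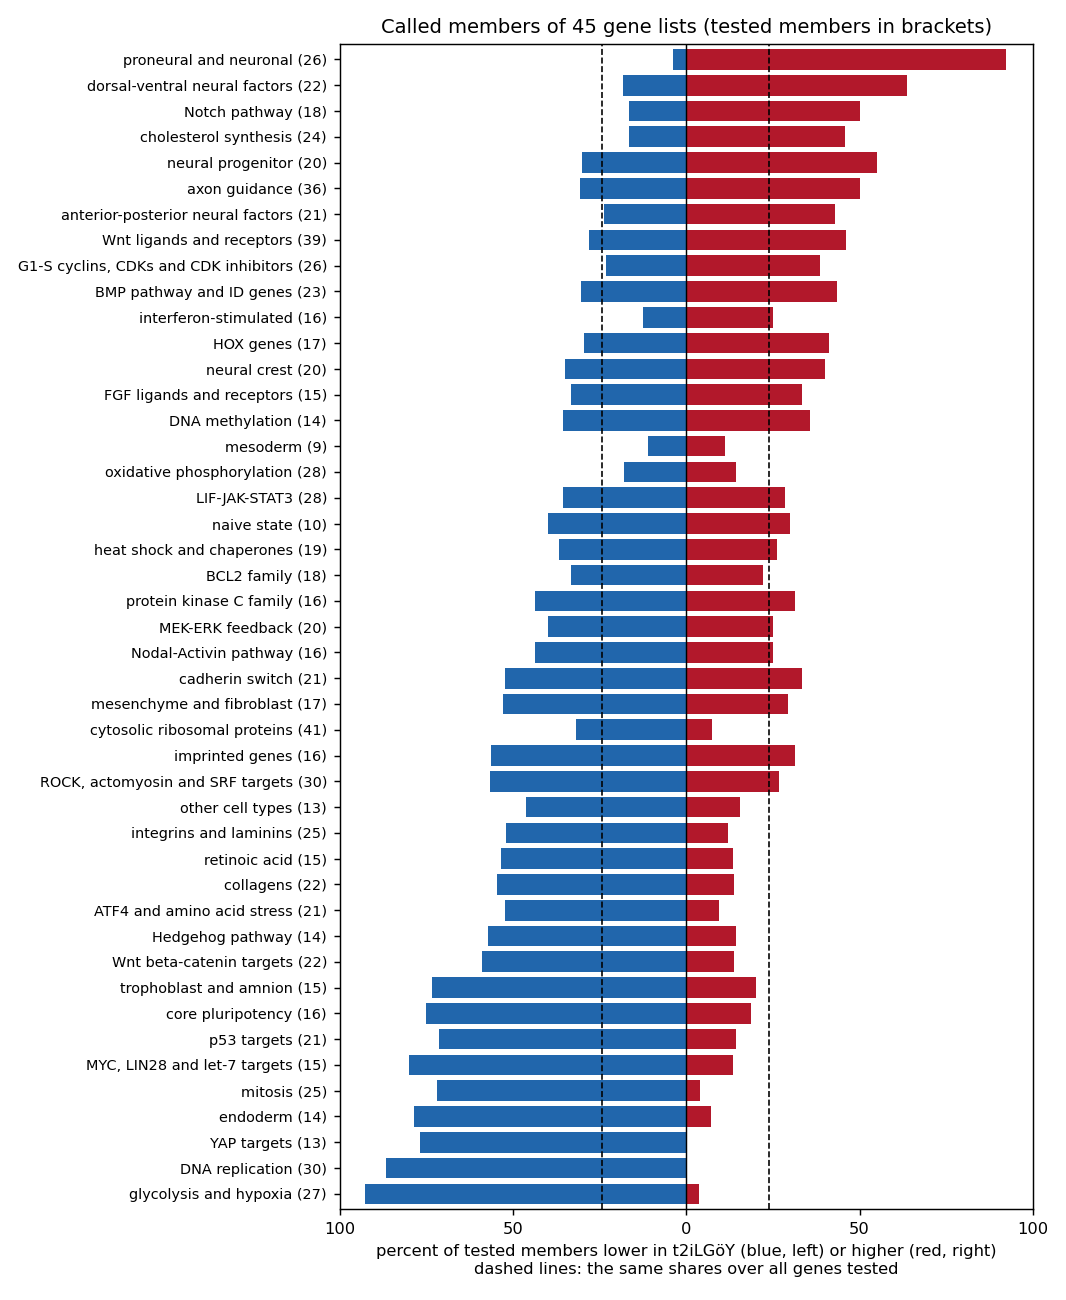
Bars give the percent of tested members of each of 45 gene lists that were lower (blue, left) or higher (red, right) in t2iLGöY, with the number of members tested in brackets and the shares over all genes tested as dashed lines. Proneural and neuronal genes have the longest bar to the right, with 24 of 26, and glycolysis and hypoxia genes the longest to the left, with 25 of 27.

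Among core pluripotency genes, 3 of 16 tested members were higher and 12 lower in t2iLGöY, with a median log2 fold change of -2.24. LIN28A, an RNA-binding protein that blocks let-7 maturation, had 285, 232 and 296 CPM in TL2i and 3.19, 3.48 and 2.67 CPM in t2iLGöY (log2 fold change -6.42 ± 0.15), and the TL2i values lay below the primed 477, 584 and 679 CPM. TRIM71, its partner in early embryonic cells, had 167, 150.3 and 148 CPM in TL2i and 7.47, 8.71 and 12.8 CPM in t2iLGöY (log2 fold change -3.99 ± 0.17). SALL4 had 91.7, 92.1 and 88.7 CPM in TL2i and 20.8, 8.64 and 10.4 CPM in t2iLGöY (log2 fold change -2.75 ± 0.26). Each of these was several-fold higher in every TL2i library than in any t2iLGöY library. ZFP42 (REX1) had 20.7, 20.7 and 20.8 CPM in TL2i and 47.7, 60.3 and 76.7 CPM in primed cells. DPPA4 (log2 fold change -4.25 ± 0.74), LIN28B (log2 fold change -2.05 ± 0.15), FOXD3 (log2 fold change -1.99 ± 0.22) and L1TD1 (log2 fold change -0.96 ± 0.18) were lower as well. NODAL was lower by a ratio of 42.1 with a counting interval of 11.3 to 352 and GDF3, at 0 in t2iLGöY, was at least 15.1-fold lower, both at under 3 CPM in TL2i. The 3 higher members were OTX2, ZIC2 (log2 fold change 0.56 ± 0.09) and SOX2, which are shared by PSCs and neural cells. OTX2 had 305, 333 and 258 CPM in t2iLGöY and 21.5, 20.7 and 17.6 CPM in TL2i (log2 fold change 3.92 ± 0.13), and primed cells had 96.7, 121 and 151 CPM. PRDM14, TDGF1, DPPA2 and UTF1 were too low to test, with under 1.5 CPM in each of the 6 libraries.

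Naive-state markers did not separate the groups in a common direction, with 3 higher and 4 lower of 10 tested and a median log2 fold change of -0.86. KLF17, ARGFX and FGF4 were at 0 in the 6 libraries, and TFCP2L1, DPPA5, DNMT3L and NR0B1 were too low to test, at no more than 1.37 CPM. KLF4 had 4.75, 2.41 and 3.67 CPM in t2iLGöY and 1.27, 1.76 and 1.48 CPM in TL2i (log2 fold change 1.28 ± 0.56, adjusted p = 0.081 by edgeR, called without t2iLGöY library 2, edgeR adjusted p = 0.025). TFE3 had 43.4, 43.4 and 46.5 CPM in t2iLGöY and 51.7, 50.5 and 51.4 CPM in TL2i (log2 fold change -0.19 ± 0.11, adjusted p = 0.20 by edgeR). ESRRB had 0, 0 and 0.793 CPM in t2iLGöY and 0.781, 0.936 and 0.917 CPM in TL2i (log2 fold change -1.71 ± 1.24, adjusted p = 0.28 by edgeR, called without t2iLGöY library 3, edgeR adjusted p = 0.0068). These 3 were not called. TFAP2C, used as a naive marker and also made by trophoblast and amnion, had 54.7, 50.9 and 47.2 CPM in TL2i and 19.4, 11.4 and 21.04 CPM in t2iLGöY (log2 fold change -1.54 ± 0.21). TBX3 had 26.95, 32.8 and 26.3 CPM in TL2i and 4.75, 3.21 and 3.31 CPM in t2iLGöY (log2 fold change -2.91 ± 0.23), and KLF5 had 18.3, 24.6 and 19.7 CPM in TL2i and 5.84, 3.21 and 2.23 CPM in t2iLGöY (log2 fold change -2.45 ± 0.33). DPPA3 was at 0 in t2iLGöY and had 1.51, 3.22 and 2.19 CPM in TL2i, at least 32.8-fold lower. Higher in t2iLGöY were NR5A2 (log2 fold change 1.63 ± 0.52, not called without any TL2i library, edgeR adjusted p = 0.055 to 0.082), SUSD2 (log2 fold change 1.21 ± 0.36, not called without t2iLGöY library 1 or TL2i library 1 or 3, edgeR adjusted p = 0.057 to 0.073) and TFAP2A (log2 fold change 0.72 ± 0.14), and the count of higher members fell to 1 without TL2i library 1 or 3.

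TL2i cells received tamoxifen, which activates STAT3-ERT2, and t2iLGöY cells did not, so the transgene was active in the former and inactive in the latter. STAT3 had 786, 790.05 and 759.8 CPM in TL2i and 302, 294 and 298 CPM in t2iLGöY (log2 fold change -1.37 ± 0.07, adjusted p = 3.40e-08 by edgeR), and the primed libraries had 99.7, 148 and 220.1 CPM. The tables do not say whether reads of the STAT3-ERT2 transgene were counted on STAT3, so the transgene and the endogenous gene cannot be told apart. SOCS3, the feedback inhibitor that STAT3 induces, was in the opposite order, with 41.2, 43.1 and 38.5 CPM in t2iLGöY and 21.9, 20.7 and 21.5 CPM in TL2i (log2 fold change 0.96 ± 0.14, adjusted p = 1.32e-04 by edgeR). SOCS2, another feedback inhibitor, had 61.1, 70.5 and 67.5 CPM in t2iLGöY and 18.8, 26.1 and 24.1 CPM in TL2i (log2 fold change 1.55 ± 0.15). A2M, a secreted protease inhibitor, had 4579, 4652 and 3874 CPM in t2iLGöY and 257, 359 and 286 CPM in TL2i (log2 fold change 3.88 ± 0.13, adjusted p = 1.16e-09 by edgeR). SERPINA3, a gene of the acute phase response, was higher at low level, with 7.06, 10.6 and 12.1 CPM in t2iLGöY and 1.42, 2.98 and 1.62 CPM in TL2i (log2 fold change 2.32 ± 0.41). Lower in t2iLGöY were PIM1 (log2 fold change -1.80 ± 0.14), a kinase induced by STAT3, JUNB (log2 fold change -1.74 ± 0.36) and the receptor subunits IL6R (log2 fold change -2.80 ± 0.91, not called without any TL2i library, edgeR adjusted p = 0.066 to 0.15), LIFR (log2 fold change -1.02 ± 0.18) and IL6ST (log2 fold change -0.41 ± 0.10). FGB, a fibrinogen chain, had 5.42, 8.83 and 6.77 CPM in TL2i and 0.136, 0 and 0 CPM in t2iLGöY, a ratio of 151 with a counting interval of 41.4 to 1248. In the list as a whole, 8 of 28 tested members were higher and 10 lower in t2iLGöY, with a median log2 fold change of -0.45, so its members did not move together.

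Genes of the MEK-ERK feedback loop were split as well, with 5 higher and 8 lower of 20 tested. DUSP6, the ERK phosphatase that ERK itself induces, had 54.05, 45.4 and 55.2 CPM in TL2i and 12.8, 18.9 and 14.6 CPM in t2iLGöY (log2 fold change -1.72 ± 0.17, adjusted p = 7.53e-06 by edgeR), and both groups lay far below the primed 521, 549 and 684 CPM. EGR1, an immediate early gene, had 42.5, 35.5 and 29.3 CPM in TL2i and 3.19, 2.75 and 2.23 CPM in t2iLGöY (log2 fold change -3.69 ± 0.23), against 1121, 1499.7 and 1763 CPM in primed cells. SPRY4, another feedback inhibitor, was not called, with 9.71, 13.9 and 7.71 CPM in t2iLGöY and 14.9, 15.6 and 13.1 CPM in TL2i (log2 fold change -0.46 ± 0.25, adjusted p = 0.15 by edgeR, called without t2iLGöY library 2, edgeR adjusted p = 0.020). Among the lower genes were DUSP5 (log2 fold change -4.47 ± 0.36), FOSL1 (log2 fold change -4.85 ± 0.93) and FOS (log2 fold change -2.003 ± 0.34). Higher in t2iLGöY were IL17RD (log2 fold change 2.41 ± 0.13), an inhibitor of FGF receptor signalling, SPRED3 (log2 fold change 2.09 ± 0.27), ETV1 (log2 fold change 1.63 ± 0.24) and SPRY1 (log2 fold change 1.52 ± 0.26).

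Wnt/β-catenin targets were more often lower in t2iLGöY, with 13 lower and 3 higher of 22 tested and a median log2 fold change of -1.23. AXIN2, the negative feedback gene of the pathway, had 394, 395 and 364 CPM in TL2i and 288, 304 and 278 CPM in t2iLGöY (log2 fold change -0.39 ± 0.08, adjusted p = 0.0014 by edgeR), and both groups were well above the primed 4.36, 6.83 and 10.6 CPM. LEF1, a nuclear partner of β-catenin, had 171, 143 and 143 CPM in TL2i and 91.5, 73.7 and 105 CPM in t2iLGöY (log2 fold change -0.74 ± 0.13, adjusted p = 6.81e-04 by edgeR), where the primed libraries had 0, 0 and 0.898 CPM. The secreted Wnt inhibitor DKK1 had 27.9, 54.8 and 29.8 CPM in TL2i and 2.17, 3.68 and 1.37 CPM in t2iLGöY (log2 fold change -3.93 ± 0.36). NOTUM, an enzyme that inactivates Wnt proteins, had 8.64, 14.98 and 14.04 CPM in TL2i and 0, 0.871 and 1.01 CPM in t2iLGöY (log2 fold change -4.30 ± 0.67). CDX2 and CDX1, homeobox factors of posterior embryo and gut, were at 0 in t2iLGöY, at least 66.5-fold and at least 16.3-fold lower. Higher were BAMBI (log2 fold change 1.89 ± 0.16), WNT3A (log2 fold change 1.39 ± 0.12) and LGR5 (log2 fold change 1.12 ± 0.41, not called without t2iLGöY library 1 or TL2i library 1 or 3, edgeR adjusted p = 0.12 to 0.16), of which LGR5 overlapped between groups.

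The kinases that the additional inhibitors of t2iLGöY act on, and genes tied to them, were examined next. Within the protein kinase C family list, 5 of 16 tested members were higher and 7 lower in t2iLGöY, with a median log2 fold change of -0.18. PRKCB, a calcium-dependent isoform, had 240.3, 180.4 and 203 CPM in TL2i and 7.67, 4.76 and 5.12 CPM in t2iLGöY (log2 fold change -5.13 ± 0.18, adjusted p = 2.01e-09 by edgeR), and primed cells had 40.5, 52.1 and 59.8 CPM. Of the other isoforms, PRKCD (log2 fold change -1.77 ± 0.30), PRKCH (log2 fold change -2.71 ± 0.79, not called without any TL2i library, edgeR adjusted p = 0.054 to 0.064) and PRKCI (log2 fold change -0.35 ± 0.11, not called without t2iLGöY library 1 or TL2i library 2, edgeR adjusted p = 0.064 to 0.074) were lower, PRKCQ was lower by a ratio of 52.2 with a counting interval of 9.02 to 2093, and PRKCA (log2 fold change -0.20 ± 0.19, adjusted p = 0.41 by edgeR) and PRKCE (log2 fold change 0.62 ± 0.26, adjusted p = 0.065 by edgeR, called without t2iLGöY library 2, edgeR adjusted p = 0.039) were not called. DGKA (log2 fold change -2.15 ± 0.53), a kinase that removes the activator diacylglycerol, was lower too. The kinase C substrates MARCKS (log2 fold change 1.23 ± 0.08), MARCKSL1 (log2 fold change 1.18 ± 0.10) and GAP43 were higher. GAP43 is also a protein of growing axons and had 239.8, 283 and 241 CPM in t2iLGöY and 27.3, 28.9 and 26.9 CPM in TL2i (log2 fold change 3.22 ± 0.10). The related kinase gene PRKD1 was higher (log2 fold change 0.78 ± 0.14).

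Of 30 genes of ROCK, actomyosin and SRF targets, 17 were lower and 8 higher. The kinase genes themselves were modestly lower, ROCK1 with 187, 188 and 169 CPM in TL2i and 139, 135 and 148 CPM in t2iLGöY (log2 fold change -0.35 ± 0.09) and ROCK2 with 226, 247 and 223 CPM in TL2i and 148, 172 and 142 CPM in t2iLGöY (log2 fold change -0.57 ± 0.09). The largest differences were in smooth muscle contractile genes that the factor SRF activates. CNN1 (calponin) had 77.2, 83.5 and 82.3 CPM in TL2i and 2.24, 2.88 and 1.22 CPM in t2iLGöY (log2 fold change -5.23 ± 0.22, adjusted p = 7.12e-09 by edgeR). ACTA2, smooth muscle actin, had 383, 375 and 378 CPM in TL2i and 67.5, 56.7 and 47.8 CPM in t2iLGöY (log2 fold change -2.70 ± 0.12). TAGLN (transgelin) had 983, 932 and 1032 CPM in TL2i and 267, 311 and 224 CPM in t2iLGöY (log2 fold change -1.86 ± 0.11). The TL2i libraries lay close together for these 3 genes and none of the t2iLGöY libraries reached them. ACTG2 (log2 fold change -1.64 ± 0.10), SRF itself (log2 fold change -1.15 ± 0.09) and RHOB (log2 fold change -1.44 ± 0.10) were lower too. Higher members were RND2 (log2 fold change 0.73 ± 0.15), ACTB, RND3 (log2 fold change 0.67 ± 0.08) and RHOA (log2 fold change 0.57 ± 0.08), and none of the higher members reached a log2 fold change of 1.

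In the list of YAP target genes, which also respond to cell tension, 10 of 13 tested members were lower and 0 higher. The median log2 fold change was -0.73. The list also holds YAP1, WWTR1 and the genes of their DNA-binding TEAD partners, so these counts are not of targets alone. The gene of YAP itself, YAP1, was not called (log2 fold change 0.05 ± 0.08, adjusted p = 0.67 by edgeR), nor was that of its paralog, WWTR1 (log2 fold change 0.06 ± 0.09, adjusted p = 0.62 by edgeR). Beside ANKRD1, CYR61 had 337, 439.8 and 357 CPM in TL2i and 40.9, 37.8 and 32.9 CPM in t2iLGöY (log2 fold change -3.32 ± 0.13), CTGF had 361, 442 and 366 CPM in TL2i and 131, 121 and 90.8 CPM in t2iLGöY (log2 fold change -1.75 ± 0.13), and AXL had 130.2, 152 and 135 CPM in TL2i and 37.96, 32.01 and 35.1 CPM in t2iLGöY (log2 fold change -1.97 ± 0.11). CYR61 and CTGF encode secreted matrix-associated proteins, and AXL encodes a receptor tyrosine kinase. For these targets the lowest TL2i library was at least 2.5 times the highest t2iLGöY library.

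Neural genes were the largest group named on the t2iLGöY side. Of 21 tested factors of anterior-posterior position, 9 were higher, most of them of forebrain and midbrain, and 5, all of the hindbrain, were lower. LHX5, a factor of the developing forebrain, had 44.5, 52.7 and 38.8 CPM in t2iLGöY and 0.439, 0.702 and 1.41 CPM in TL2i (log2 fold change 5.82 ± 0.32). LHX2, a selector gene of cortex and eye, had 24.7, 34.3 and 25.1 CPM in t2iLGöY and 0.244, 0.0585 and 0.353 CPM in TL2i (log2 fold change 7.01 ± 0.39). EMX2, of dorsal forebrain, had 7.54, 16.3 and 8.93 CPM in t2iLGöY and 0.0488, 0.351 and 0 CPM in TL2i (log2 fold change 6.28 ± 0.74). Together with OTX1 and OTX2 these mark forebrain and midbrain. WNT1, secreted at the midbrain-hindbrain boundary and the dorsal midline, had 674, 705 and 625 CPM in t2iLGöY and 83.5, 85.7 and 95.9 CPM in TL2i (log2 fold change 2.94 ± 0.09, adjusted p = 8.19e-10 by edgeR). IRX1 (log2 fold change 3.07 ± 0.35) and IRX2 (log2 fold change 0.49 ± 0.12) were higher as well. The lower members were hindbrain genes, led by HOXB1, which was at 0 in t2iLGöY and had 8.89, 5.97 and 5.43 CPM in TL2i, at least 101-fold lower. EGR2 had 8.01, 8.19 and 5.78 CPM in TL2i and 1.22, 1.07 and 1.73 CPM in t2iLGöY (log2 fold change -2.43 ± 0.43), and HOXB2 had 78.7, 65.1 and 77.03 CPM in TL2i and 36.3, 32.5 and 33.7 CPM in t2iLGöY (log2 fold change -1.09 ± 0.12). Other forebrain factors were absent or near absent: SIX3, SIX6, RAX and EMX1 had under 1 CPM in each library. EN1, which marks the midbrain-hindbrain region, was not called (log2 fold change 0.79 ± 1.17, adjusted p = 0.61 by edgeR), and EN2 was too low to test.

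Most dorsal factors of the neural tube were higher, and SHH, FOXA2 and NKX6-1, which are expressed ventrally, were lower, with 14 higher and 4 lower of 22 tested and a median log2 fold change of 1.18. LMX1A, a factor of roof plate and ventral midbrain, had 205, 204 and 160.02 CPM in t2iLGöY and 49.997, 46.7 and 51.5 CPM in TL2i (log2 fold change 1.96 ± 0.11). Its relative LMX1B had 183, 171 and 185 CPM in t2iLGöY and 27.5, 27.97 and 29.7 CPM in TL2i (log2 fold change 2.68 ± 0.10). ZIC4, expressed in dorsal neural tube and cerebellum, had 544, 536 and 370.4 CPM in t2iLGöY and 62.7, 63.8 and 64.1 CPM in TL2i (log2 fold change 2.95 ± 0.14), and ZIC1 had 575, 659 and 529 CPM in t2iLGöY and 207, 155 and 189 CPM in TL2i (log2 fold change 1.70 ± 0.12). PAX6, a factor of forebrain, eye and spinal progenitors, had 150.1, 190.1 and 125 CPM in t2iLGöY and 6.01, 4.27 and 6.07 CPM in TL2i (log2 fold change 4.85 ± 0.19, adjusted p = 3.85e-09 by edgeR), where primed libraries had 1.89, 2.69 and 7.87 CPM. ATOH1, of rhombic lip and dorsal progenitors, was higher at under 6 CPM (log2 fold change 4.79 ± 0.64). SHH, the ventralizing morphogen of floor plate and notochord, was at 0 in t2iLGöY and had 2.49, 4.97 and 5.71 CPM in TL2i, at least 60.9-fold lower. FOXA2, of floor plate and endoderm, had 5.66, 9.89 and 10.1 CPM in TL2i and 0.0679, 0 and 0 CPM in t2iLGöY, a ratio of 360.1 with a counting interval of 64.3 to 14255. NKX6-1 was lower (log2 fold change -3.09 ± 1.14, not called without t2iLGöY library 1 or 3 or any TL2i library, edgeR adjusted p = 0.055 to 0.15), and NKX2-1 was at 0 in the 6 libraries. PAX7, a dorsal factor, went the other way, with 42.7, 39.7 and 47.97 CPM in TL2i and 22.9, 13.5 and 12.8 CPM in t2iLGöY (log2 fold change -1.39 ± 0.22). LMX1A, LMX1B and ZIC1 were singled out after their values were seen.

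General neural progenitor genes were higher in 11 and lower in 6 of 20, so both groups held them. SOX3 had 10.8, 15.1 and 12.8 CPM in t2iLGöY and 3.71, 3.22 and 4.37 CPM in TL2i (log2 fold change 1.79 ± 0.28), and HES5, a Notch effector, was higher at under 7 CPM (log2 fold change 5.50 ± 0.76). SOX1 was not called (log2 fold change 0.10 ± 0.24, adjusted p = 0.77 by edgeR). PTPRZ1, a receptor phosphatase of radial glia and of primed PSCs, was in the opposite order, with 164, 169 and 169 CPM in TL2i and 17.8, 18.7 and 25.4 CPM in t2iLGöY (log2 fold change -3.001 ± 0.14). SOX21 (log2 fold change -3.24 ± 0.30), the glutamate transporter SLC1A3 (log2 fold change -2.35 ± 0.19) and the Notch-modifying enzyme LFNG (log2 fold change -3.64 ± 0.26) were lower as well. NES, the intermediate filament of progenitors, was lower and VIM higher, both with log2 fold changes under 1 in size.

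Proneural and neuronal genes were higher in 24 of 26 and lower in 1 (2 without t2iLGöY library 3), with a median log2 fold change of 3.21. TUBB3, the neuronal tubulin, had 663, 671 and 700.2 CPM in t2iLGöY and 81.001, 83.1 and 88.8 CPM in TL2i (log2 fold change 3.03 ± 0.08, adjusted p = 3.62e-10 by edgeR), and primed libraries had 7.003, 10.4 and 12.7 CPM. DCX, of migrating neurons, had 601, 668 and 621 CPM in t2iLGöY and 85.5, 67.3 and 62.1 CPM in TL2i (log2 fold change 3.15 ± 0.12). POU4F1, a factor of sensory neurons and habenula, had 121, 151 and 134 CPM in t2iLGöY and 0.879, 1.29 and 1.27 CPM in TL2i (log2 fold change 6.92 ± 0.18). SLC17A6, the vesicular glutamate transporter of excitatory neurons, had 45.97, 57.7 and 52.1 CPM in t2iLGöY and 0.635, 1.23 and 0.635 CPM in TL2i (log2 fold change 5.97 ± 0.25). These 4 differed between groups by at least 7 times in each pair of libraries, and for POU4F1 and SLC17A6 the TL2i libraries were close to or under 1 CPM. Of the transient factors of newborn neurons, NHLH2 had 100.4, 119 and 91.1 CPM in t2iLGöY and 3.12, 2.11 and 3.39 CPM in TL2i (log2 fold change 5.19 ± 0.19), and NEUROD4 was higher (log2 fold change 4.05 ± 0.21). The exception was GAD1, the enzyme that makes GABA, with 5.86, 7.14 and 7.55 CPM in TL2i and 1.02, 0 and 0 CPM in t2iLGöY (log2 fold change -4.27 ± 0.99). PHOX2A was not called (log2 fold change -1.996 ± 1.23, adjusted p = 0.20 by edgeR, called without t2iLGöY library 3, edgeR adjusted p = 0.0040), NEUROD2 was at 0 in the 6 libraries, and TBR1, EOMES, GAD2 and NEUROG3 were too low to test. Summed over the 31 genes of the list, the level was 2771 to 3142 CPM in the t2iLGöY libraries and 334 to 345 CPM in the TL2i libraries. TUBB3, DCX and NEUROD4 were singled out after their values were seen.

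**Figure D3:**
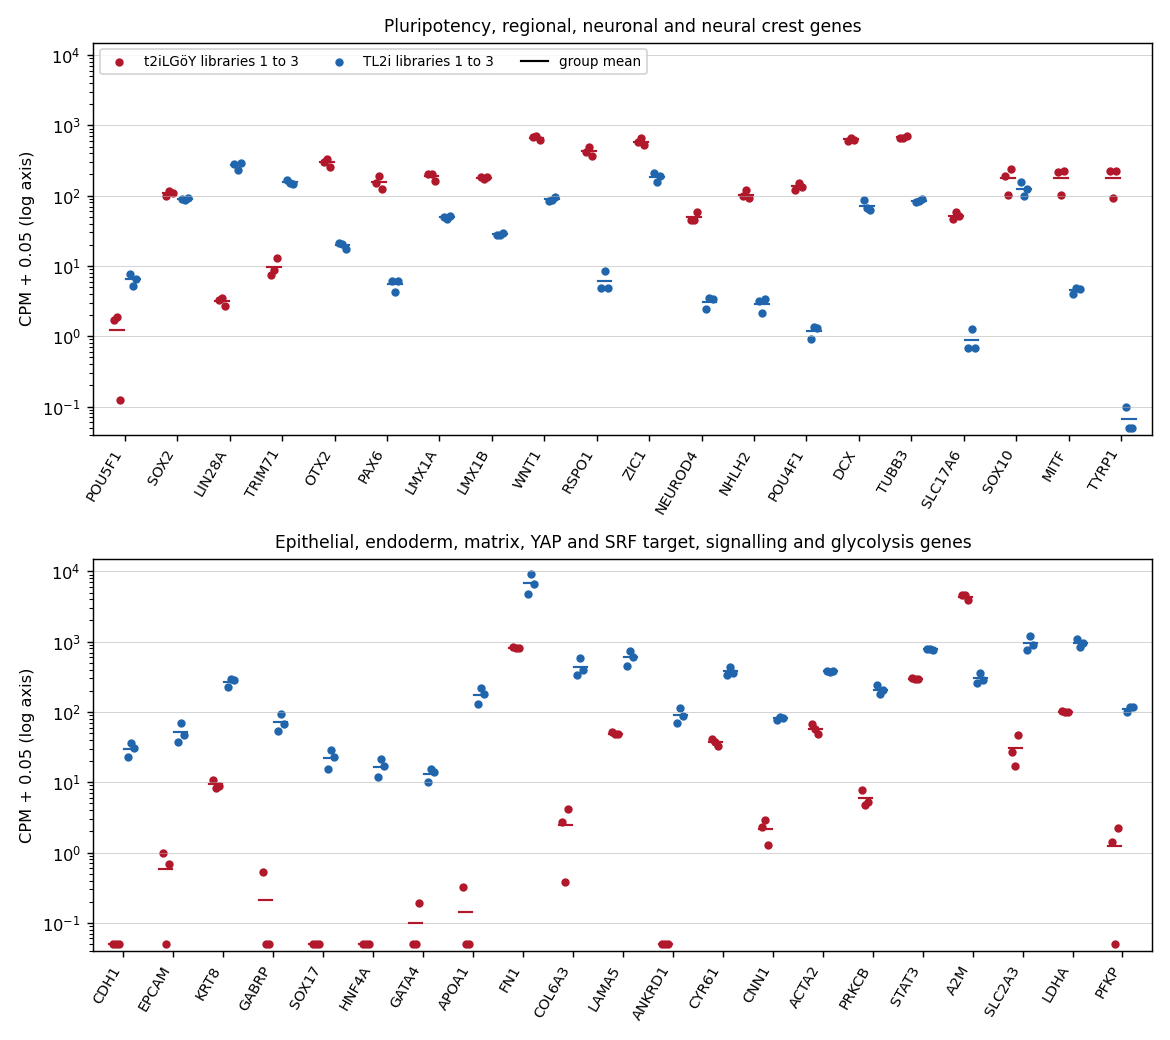
Points are the CPM of each library (log axis, 0.05 CPM added) and bars the group means, red for t2iLGöY and blue for TL2i, for genes of pluripotency, brain regions, neurons and crest (upper panel) and of epithelium, endoderm, matrix, signalling and glycolysis (lower panel). The groups overlap for SOX10 and are separate for the other genes shown.

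Genes for Notch signalling, by which newborn neurons hold back their neighbours, were higher in 9 and lower in 3 of 18. The ligand DLL1 had 92.1, 89.7 and 77.6 CPM in t2iLGöY and 18.2, 28.4 and 30.8 CPM in TL2i (log2 fold change 1.77 ± 0.18), and the ligand DLL3 had 28.2, 34.02 and 34.8 CPM in t2iLGöY and 8.01, 9.13 and 12.3 CPM in TL2i (log2 fold change 1.74 ± 0.20). Of the HES family genes, HES6 (log2 fold change 2.18 ± 0.18) and HES4 (log2 fold change 2.04 ± 0.20) were higher and HES1 was not called (log2 fold change 0.20 ± 0.14, adjusted p = 0.26 by edgeR). HEYL (log2 fold change -0.75 ± 0.14) and LFNG were lower. The receptor NOTCH1 was slightly higher (log2 fold change 0.34 ± 0.10, not called without t2iLGöY library 1 or TL2i library 1, edgeR adjusted p = 0.061 to 0.077) and NOTCH2 slightly lower (log2 fold change -0.25 ± 0.09, not called without t2iLGöY library 2 or 3 or TL2i library 2 or 3, edgeR adjusted p = 0.093 to 0.14).

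Of 36 axon guidance genes, 18 were higher and 11 lower. EPHB1, an ephrin receptor, had 173, 203 and 152 CPM in t2iLGöY and 16.7, 16.6 and 23.8 CPM in TL2i (log2 fold change 3.23 ± 0.16), EPHA3 had 62.0002, 69.8 and 94.8 CPM in t2iLGöY and 10.01, 9.65 and 9.66 CPM in TL2i (log2 fold change 2.97 ± 0.18), and ROBO3, a Slit receptor of commissural axons, had 49.5, 64.2 and 40.4 CPM in t2iLGöY and 6.298, 6.08 and 7.34 CPM in TL2i (log2 fold change 2.99 ± 0.20). EPHA5 was higher at under 15 CPM (log2 fold change 2.85 ± 0.37). The secreted ligand SEMA3A went the other way, with 60.9, 64.8 and 56.01 CPM in TL2i and 2.65, 1.94 and 1.66 CPM in t2iLGöY (log2 fold change -4.83 ± 0.20), as did its coreceptor family member NRP2, with 635, 702 and 647 CPM in TL2i and 111, 80.1 and 119 CPM in t2iLGöY (log2 fold change -2.66 ± 0.13). UNC5D (log2 fold change -1.61 ± 0.16) and NTN1 (log2 fold change -2.55 ± 0.95, not called without t2iLGöY library 1 or any TL2i library, edgeR adjusted p = 0.095 to 0.16) were lower too.

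Neural crest genes were present in both groups, with 8 higher and 7 lower of 20 tested. SOX10, the crest and glial factor, had 191, 102 and 241 CPM in t2iLGöY and 158, 97.9 and 122 CPM in TL2i and was not called (log2 fold change 0.51 ± 0.25, adjusted p = 0.12 by edgeR, called without t2iLGöY library 2, edgeR adjusted p = 0.0011), and ERBB3 was not called either (log2 fold change -0.09 ± 0.20, adjusted p = 0.74 by edgeR). MITF, the regulator of pigment cells, had 215, 103 and 223 CPM in t2iLGöY and 3.95, 4.74 and 4.58 CPM in TL2i (log2 fold change 5.37 ± 0.29, adjusted p = 5.33e-08 by edgeR). TFAP2B had 315, 306 and 324 CPM in t2iLGöY and 82.4, 68.3 and 79.7 CPM in TL2i (log2 fold change 2.05 ± 0.10), and the endothelin receptor EDNRB, of melanocyte and enteric precursors, had 181, 102 and 204 CPM in t2iLGöY and 64.6, 53.8 and 50.01 CPM in TL2i (log2 fold change 1.55 ± 0.21). EDNRA, the endothelin receptor of cranial crest mesenchyme, had 156, 135 and 128 CPM in TL2i and 3.803, 0 and 0.937 CPM in t2iLGöY (log2 fold change -6.43 ± 0.50), and NGFR had 108, 86.6 and 97.7 CPM in TL2i and 26.6, 13.5 and 18.2 CPM in t2iLGöY (log2 fold change -2.30 ± 0.21). The receptors EDNRB and EDNRA were thus in opposite order. SNAI1 (log2 fold change -2.34 ± 0.33) and FOXD3, of early crest, were lower, and SOX9 (log2 fold change 1.002 ± 0.15) was higher. TL2i library 1 was the highest of its group for 16 of the 20 crest genes tested, against 34.4% of all genes tested.

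Melanosome genes were higher beside MITF. Of 11 pigment-cell genes chosen after their values were seen, 10 were higher and none lower in t2iLGöY. PMEL, the fibril protein of melanosomes, had 846, 482 and 1080.3 CPM in t2iLGöY and 206, 228 and 219 CPM in TL2i (log2 fold change 1.90 ± 0.22). DCT, an enzyme of melanin synthesis, had 53.6, 20.6 and 51.6 CPM in t2iLGöY and 2.78, 2.69 and 3.03 CPM in TL2i (log2 fold change 3.91 ± 0.35), and MLANA had 48.6, 18.8 and 60.4 CPM in t2iLGöY and 1.27, 2.22 and 1.48 CPM in TL2i (log2 fold change 4.70 ± 0.43). TYR, the rate-limiting enzyme of melanin synthesis, was higher at under 10 CPM (log2 fold change 4.98 ± 0.79), and the transporter SLC45A2 was higher too (log2 fold change 5.18 ± 0.50). SLC24A5 was the member not called (log2 fold change 0.38 ± 0.41, adjusted p = 0.48 by edgeR). In 9 of the 11 genes the lowest of the t2iLGöY libraries was library 2, and this held for 15 of the 20 crest genes tested, against 35.3% of all genes tested. For TYRP1 and MITF, library 2 had less than 0.5 times the level of libraries 1 and 3. Without that library, 6987 genes were called in place of 6628. Whether library 2 held fewer pigment or crest cells was not tested.

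In the list of Wnt ligands and receptors, 18 of 39 tested members were higher and 11 lower in t2iLGöY, with a median log2 fold change of 0.26. RSPO1, which amplifies Wnt signals by sparing their receptors, had 418, 494 and 363 CPM in t2iLGöY and 4.83, 8.54 and 4.87 CPM in TL2i (log2 fold change 6.14 ± 0.21, adjusted p = 1.23e-09 by edgeR). Its relative RSPO2 had 37.6, 35.9 and 43.5 CPM in t2iLGöY and 1.904, 5.67 and 2.75 CPM in TL2i (log2 fold change 3.53 ± 0.32). WNT8B, a ligand of dorsal forebrain and midbrain, had 27.98, 29.2 and 19.96 CPM in t2iLGöY and 1.61, 1.404 and 1.199 CPM in TL2i (log2 fold change 4.19 ± 0.27). Along with WNT1 and WNT3A, these were low or undetected in primed cells, where the 6 libraries had 0, 0 and 1.395 CPM of WNT1. WNT7A was higher by a ratio of 26.5 with a counting interval of 8.702 to 132, at no more than 3.01 CPM. Secreted Wnt inhibitors other than DKK1 were on the TL2i side: FRZB had 96.1, 153 and 106 CPM in TL2i and 6.04, 3.95 and 11.3 CPM in t2iLGöY (log2 fold change -4.05 ± 0.31), WIF1 was lower (log2 fold change -2.96 ± 0.80), and SFRP5 was at 0 in t2iLGöY, at least 15.98-fold lower, at under 1.3 CPM in TL2i.

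In the BMP pathway, 10 of 23 genes were higher and 7 lower. BMP6 had 109, 114 and 77.9 CPM in t2iLGöY and 7.76, 12.8 and 9.099 CPM in TL2i (log2 fold change 3.36 ± 0.21), whereas BMP5 had 167, 183 and 149 CPM in TL2i and 28.5, 32.01 and 24.1 CPM in t2iLGöY (log2 fold change -2.54 ± 0.13). The target ID1 had 87.2, 109.6 and 70.97 CPM in t2iLGöY and 28.9, 21.5 and 25.3 CPM in TL2i (log2 fold change 1.84 ± 0.17), and the transducer SMAD9 was higher (log2 fold change 1.84 ± 0.24). The extracellular antagonists GREM1 (log2 fold change -1.78 ± 0.14) and CHRD (log2 fold change -2.10 ± 0.44) and the target MSX2 (log2 fold change -1.60 ± 0.23) were lower, and ID3 was not called (log2 fold change -0.01 ± 0.15, adjusted p = 0.97 by edgeR).

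FGF genes were split evenly, 5 higher and 5 lower of 15 tested. The receptors differed in direction: FGFR2 had 703, 777 and 591 CPM in t2iLGöY and 167, 184 and 168 CPM in TL2i (log2 fold change 2.01 ± 0.10), FGFR1 had 312, 369 and 365 CPM in TL2i and 146, 153 and 141 CPM in t2iLGöY (log2 fold change -1.23 ± 0.09), and FGFR4 had 15.4, 19.8 and 15.1 CPM in TL2i and 0.747, 1.21 and 0.7205 CPM in t2iLGöY (log2 fold change -4.20 ± 0.33). Among ligands, FGF18 (log2 fold change 2.16 ± 0.45), FGF9 (log2 fold change 2.14 ± 0.53) and FGF13 (log2 fold change 1.21 ± 0.18) were higher, FGF11 was lower (log2 fold change -3.39 ± 0.23), and FGF1 was at 0 in t2iLGöY, at least 54.1-fold lower.

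Hedgehog pathway genes were lower in 8 and higher in 2 of 14, with a median log2 fold change of -1.48. Beside SHH, the ligand IHH was at 0 in t2iLGöY and had 8.35, 15.7 and 12.3 CPM in TL2i, at least 172-fold lower. The target and receptor PTCH1, chosen after its values were seen, had 125, 148 and 142 CPM in TL2i and 26.5, 26.5 and 31.8 CPM in t2iLGöY (log2 fold change -2.27 ± 0.12), and the ligand-binding HHIP was lower (log2 fold change -3.43 ± 0.82). GAS1, a coreceptor that the pathway represses, had 261, 289.7 and 264 CPM in t2iLGöY and 86.3, 78.1 and 83.4 CPM in TL2i (log2 fold change 1.74 ± 0.09), and GLI2 was higher (log2 fold change 0.66 ± 0.13).

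Retinoic acid genes were lower in 8 and higher in 2 of 15. The binding protein CRABP2 had 587, 377 and 507 CPM in TL2i and 11.1, 17.4 and 17.003 CPM in t2iLGöY (log2 fold change -4.997 ± 0.20), and the retinol receptor STRA6 had 75.2, 92.9 and 94.9 CPM in TL2i and 0.815, 5.29 and 3.39 CPM in t2iLGöY (log2 fold change -4.77 ± 0.37). ALDH1A1, which makes retinoic acid, had 13.9, 21.4 and 17.8 CPM in TL2i and 1.49, 1.21 and 0 CPM in t2iLGöY (log2 fold change -4.25 ± 0.61), and ALDH1A3 was lower at under 4 CPM (log2 fold change -3.88 ± 1.19, not called without TL2i library 2 or 3, edgeR adjusted p = 0.071 to 0.11). The nuclear receptor RXRG went the other way, with 39.7, 36.1 and 40.6 CPM in t2iLGöY and 3.03, 2.57 and 2.19 CPM in TL2i (log2 fold change 3.90 ± 0.20), and the enzyme RDH10 was slightly higher (log2 fold change 0.75 ± 0.21).

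Nodal pathway genes were mostly low, with 4 higher and 7 lower of 16. The coreceptor CFC1 was at 0 in t2iLGöY, at least 83.6-fold lower. Higher were INHBB (log2 fold change 2.41 ± 0.65), ACVR2A (log2 fold change 0.52 ± 0.19, not called without t2iLGöY library 2 or 3 or any TL2i library, edgeR adjusted p = 0.054 to 0.13), SMAD3 (log2 fold change 0.47 ± 0.13, not called without TL2i library 1 or 3, edgeR adjusted p = 0.050 to 0.058) and ACVR1B (log2 fold change 0.30 ± 0.10, not called without t2iLGöY library 1 or any TL2i library, edgeR adjusted p = 0.062 to 0.083), and 1 or 2 of the 4 higher calls were left when any TL2i library was omitted.

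Epithelial genes characterized the TL2i side. In the cadherin switch list, 7 of 21 tested members were higher and 11 lower in t2iLGöY, with a median log2 fold change of -0.76. EPCAM, the epithelial adhesion molecule, had 37.1, 69.2 and 47.4 CPM in TL2i and 0.951, 0 and 0.648 CPM in t2iLGöY (log2 fold change -6.56 ± 0.48, adjusted p = 6.07e-07 by edgeR), and the tight junction protein CLDN4 had 9.03, 17.9 and 14.8 CPM in TL2i and 0, 0.201 and 0 CPM in t2iLGöY, a ratio of 197 with a counting interval of 66.99 to 956. GRHL2, a regulator of epithelial junctions, and the vesicle protein RAB25 were at 0 in t2iLGöY, at least 71.5-fold and at least 17.1-fold lower. CDH1 in TL2i, at 22.9 to 36.6 CPM, lay partly below the primed range of 30.9 to 108 CPM. N-cadherin CDH2, of neural and mesenchymal cells, was in the opposite order, with 1306, 1392 and 1198 CPM in t2iLGöY and 503, 546 and 477 CPM in TL2i (log2 fold change 1.37 ± 0.08). CDH11 had 299.5, 379 and 334 CPM in t2iLGöY and 101, 131 and 113 CPM in TL2i (log2 fold change 1.57 ± 0.11), and the repressors of CDH1, ZEB1 (log2 fold change 1.205 ± 0.09) and ZEB2 (log2 fold change 1.16 ± 0.15), were higher.

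Endoderm genes were lower in 11 of 14 tested and higher in 1, with a median log2 fold change of -5.00. HNF4A, of liver and gut epithelium, was at 0 in t2iLGöY and had 12.01, 21.1 and 16.9 CPM in TL2i, at least 237-fold lower. GATA4, of endoderm and heart, had 10.1, 15.6 and 14.04 CPM in TL2i and 0, 0 and 0.144 CPM in t2iLGöY, a ratio of 282 with a counting interval of 77.8 to 2335. GATA6 had 14.1, 22.9 and 18.7 CPM in TL2i and 0.679, 0 and 0.3602 CPM in t2iLGöY (log2 fold change -5.70 ± 0.57). These factors and APOA1 were near 0 in the t2iLGöY libraries, while AFP, APOA2 and HHEX were near 0 in both groups. The exception was TTR, and CER1 was not called (log2 fold change -1.97 ± 1.13, adjusted p = 0.17 by edgeR, called without t2iLGöY library 1, edgeR adjusted p = 5.50e-04). GATA4 and GATA6 were singled out after their values were seen.

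Trophoblast and amnion genes were lower in 11 and higher in 3 of 15. GABRP, a gene high in amnion, had 54.3, 93.7 and 66.4 CPM in TL2i and 0.475, 0 and 0 CPM in t2iLGöY (log2 fold change -8.71 ± 0.49). KRT8, a keratin of simple epithelia, chosen after its values were seen, had 229, 293 and 281 CPM in TL2i and 10.9, 8.305 and 8.93 CPM in t2iLGöY (log2 fold change -4.82 ± 0.14). VTCN1 was at 0 in t2iLGöY and had 5.52, 7.31 and 8.25 CPM in TL2i, at least 99.6-fold lower, and KRT7 was at least 42.1-fold lower. GATA2 was at 0 in t2iLGöY and under 3 CPM in TL2i, and ELF5, CGA and TP63 were too low to test. The higher members were ISL1 (log2 fold change 2.41 ± 0.36), TFAP2B and TFAP2A, which neural crest or neurons also express.

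Matrix genes were much higher in TL2i for basement membrane and fibronectin. FN1 had 4823, 9309 and 6519 CPM in TL2i and 847, 807 and 809 CPM in t2iLGöY (log2 fold change -3.05 ± 0.19, adjusted p = 1.26e-07 by edgeR). Of 22 collagen genes, 12 were lower and 3 higher, and 5 were higher without TL2i library 2. COL6A1 had 281, 399 and 341 CPM in TL2i and 30.4, 20.7 and 40.9 CPM in t2iLGöY (log2 fold change -3.46 ± 0.21), COL6A2 had 256, 376 and 331 CPM in TL2i and 36.6, 30.004 and 31.7 CPM in t2iLGöY (log2 fold change -3.27 ± 0.15), and COL11A2, of cartilage, had 46.04, 40.8 and 40.6 CPM in TL2i and 6.59, 1.14 and 3.46 CPM in t2iLGöY (log2 fold change -3.49 ± 0.40). The higher members were COL14A1, with 134, 171 and 135 CPM in t2iLGöY and 25.6, 33.9 and 25.2 CPM in TL2i (log2 fold change 2.39 ± 0.14), and the cartilage collagens COL9A2 (log2 fold change 1.03 ± 0.18) and COL9A1 (log2 fold change 0.84 ± 0.21). COL1A1 was not called (log2 fold change 0.40 ± 0.21, adjusted p = 0.13 by edgeR, called without TL2i library 2, edgeR adjusted p = 0.011). Of 25 integrin and laminin genes, 13 were lower and 3 higher. The laminin chain LAMA5 had 452, 744 and 602 CPM in TL2i and 51.7, 47.95 and 47.8 CPM in t2iLGöY (log2 fold change -3.59 ± 0.16), and LAMB1 had 558, 889 and 665 CPM in TL2i and 83.5, 72.7 and 94.7 CPM in t2iLGöY (log2 fold change -3.05 ± 0.16). LAMB3 was at 0 in t2iLGöY, at least 27.2-fold lower. Higher were ITGA2 (log2 fold change 1.52 ± 0.29), LAMA4 (log2 fold change 1.22 ± 0.20) and ITGA4 (log2 fold change 0.94 ± 0.20).

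In the mesenchyme and fibroblast list, 9 of 17 were lower and 5 higher, or 3 higher without TL2i library 1 or 3. The list shares 6 genes with the collagens and also holds FN1, so these counts are not separate from those of matrix genes. The proteoglycans LUM and DCN were at 0 in t2iLGöY, with 8.64, 15.4 and 9.59 CPM of LUM in TL2i, at least 162-fold lower, and 4.004, 7.61 and 5.57 CPM of DCN, at least 81.6-fold lower. SPARC, a secreted matrix protein, had 1881, 2062 and 1927 CPM in t2iLGöY and 959, 1322 and 1051 CPM in TL2i (log2 fold change 0.84 ± 0.11), and FBN1, of microfibrils, had 332, 302 and 324 CPM in t2iLGöY and 143, 218 and 167 CPM in TL2i (log2 fold change 0.88 ± 0.13). The crosslinking enzyme LOX (log2 fold change 1.13 ± 0.28) and the crest and mesenchyme factor TWIST1 (log2 fold change 0.93 ± 0.27, not called without TL2i library 1 or 3, edgeR adjusted p = 0.053 to 0.068) were higher.

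In TL2i, epithelial, endodermal and matrix genes varied together. Library 2 was the highest of the 3 for 10 of 14 endoderm genes, 16 of 21 cadherin switch genes, 19 of 22 collagens and 23 of 25 integrins and laminins, against 37.6% of all genes tested. Among genes called lower, library 2 was the highest for 45.9% of them. Within the lists, this held for 9 of 11 lower endoderm genes, 10 of 11 cadherin switch genes, 10 of 12 collagens and 12 of 13 integrins and laminins. Without this library, 5486 genes were called in place of 6628, 2773 of them lower, and without library 1 or 3 the numbers were 5527 and 5208. CDH1, EPCAM, SOX17, APOA1, FN1 and COL6A3 had their lowest TL2i value in library 1 and their highest in library 2. No t2iLGöY library reached the lowest TL2i library in any of these 6 genes. Whether the 3 libraries held different shares of epithelial or endodermal cells was not tested.

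**Figure D4:**
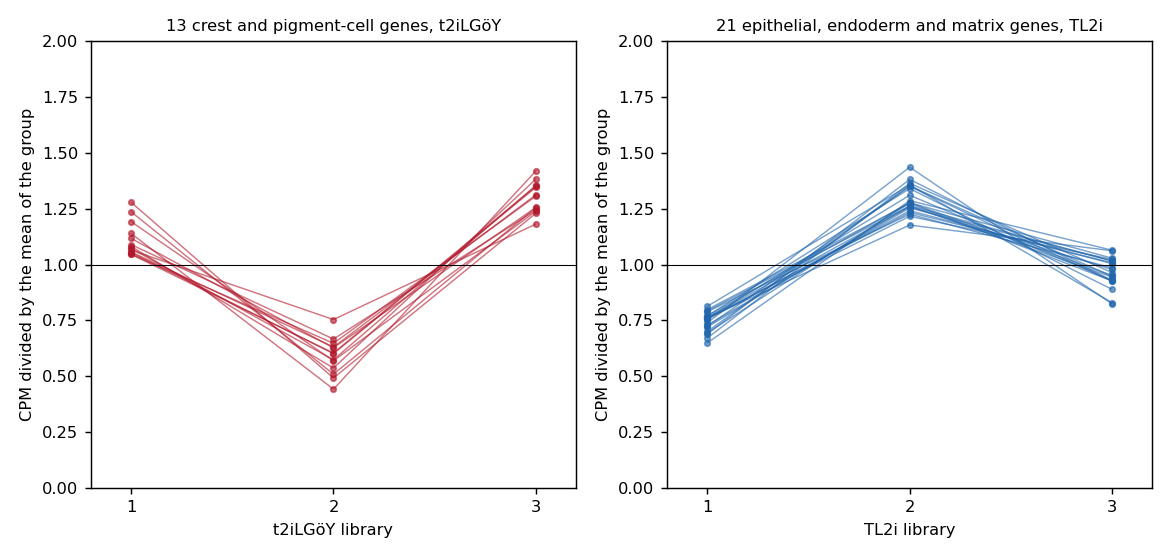
Lines join the CPM of a gene in libraries 1 to 3 of a group, divided by the mean of that group, for 13 crest and pigment-cell genes in t2iLGöY (left) and 21 epithelial, endoderm and matrix genes in TL2i (right), chosen after their values were seen. Library 2 is the lowest in the left panel and the highest in the right panel for every line drawn, which follows from the choice of genes. Over whole lists, t2iLGöY library 2 was lowest for 15 of 20 crest genes. TL2i library 2 was highest for 10 of 14 endoderm genes, 16 of 21 cadherin switch genes, 19 of 22 collagens and 23 of 25 integrins and laminins.

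Markers of further cell types were few. Of 18 mesoderm symbols in the table, 9 could be tested, and their summed level was 33.9 to 42.2 CPM in t2iLGöY and 24.4 to 30.6 CPM in TL2i. HAND1 was lower (log2 fold change -2.48 ± 0.58) and ISL1 higher. The calls were 3 lower without t2iLGöY library 1 and 2 higher without t2iLGöY library 2 or 3. Among 24 markers of other cell types, DES, an intermediate filament of muscle, had 86.1, 106 and 98.4 CPM in TL2i and 11.2, 6.76 and 14.7 CPM in t2iLGöY (log2 fold change -3.14 ± 0.22), and the troponin TNNT2 and the keratin KRT5 were at 0 in t2iLGöY, at least 88.3-fold and at least 53.3-fold lower. The endothelial PECAM1 was lower at under 6 CPM (log2 fold change -3.83 ± 1.10, not called without TL2i library 1 or 2, edgeR adjusted p = 0.059 to 0.074), and the germ cell gene NANOS3 was higher at under 4 CPM (log2 fold change 2.80 ± 0.83, not called without TL2i library 1 or 2, edgeR adjusted p = 0.080 to 0.082). In that list 6 members were lower and 2 higher (1 without TL2i library 1 or 2), the other being PMEL, and HBA1, PTPRC, ALB, MYOD1 and DAZL were near or at 0 in both groups. Apart from the hindbrain members above, HOX genes were low, with 7 higher and 5 lower of 17 tested. HOXC6 had 8.08, 11.5 and 8.07 CPM in t2iLGöY and 0.439, 1.64 and 0.141 CPM in TL2i (log2 fold change 3.63 ± 0.65), HOXC8 had 4.82, 5.96 and 6.7004 CPM in t2iLGöY and 0.146, 1.05 and 0.423 CPM in TL2i (log2 fold change 3.44 ± 0.69), and HOXC4 (log2 fold change 3.31 ± 0.89, not called without TL2i library 2, edgeR adjusted p = 0.059) and HOXA10 (log2 fold change 2.82 ± 0.78, not called without TL2i library 2 or 3, edgeR adjusted p = 0.069 to 0.070) were higher at under 5 CPM. HOXB3 was lower (log2 fold change -1.13 ± 0.16). The HOX count of higher members was 4 with the replicate numbers as a block, 4 without TL2i library 1, and 3 without TL2i library 3.

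Genes of DNA replication were lower in 26 of 30 and higher in 0, by small amounts, with a median log2 fold change of -0.56. The exception in size was GMNN (geminin), which blocks relicensing of replication origins, with 219, 181 and 196 CPM in TL2i and 18.7, 19.6 and 21.7 CPM in t2iLGöY (log2 fold change -3.29 ± 0.11, adjusted p = 1.60e-09 by edgeR). TYMS, which makes thymidylate, had 232, 170.4 and 205 CPM in TL2i and 99.96, 106 and 102 CPM in t2iLGöY (log2 fold change -0.96 ± 0.11), and the GINS subunits GINS1 (log2 fold change -1.05 ± 0.25) and GINS4 (log2 fold change -1.19 ± 0.19) were lower. In mitosis, 18 of 25 genes were lower and 1 higher, with a median of -0.45. The kinetochore motor CENPE had 572, 583 and 543 CPM in TL2i and 213, 269 and 268 CPM in t2iLGöY (log2 fold change -1.16 ± 0.10), and KIF23 (log2 fold change -1.06 ± 0.11), CDC25C (log2 fold change -1.03 ± 0.16) and AURKA (log2 fold change -0.84 ± 0.18) were lower, whereas the phosphatase CDC25B was higher (log2 fold change 0.68 ± 0.09). TL2i library 1 was the highest of its group for 25 of the 30 replication genes and 21 of the 25 mitosis genes, against 34.4% of all genes tested. Without that library, 20 replication genes and 15 mitosis genes were lower.

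Regulators of the G1 phase were higher in 10 and lower in 6 of 26. The cyclin CCND2 had 816, 789 and 814 CPM in TL2i and 166, 151 and 207 CPM in t2iLGöY (log2 fold change -2.19 ± 0.11), CCNE1 was lower (log2 fold change -0.84 ± 0.17), and CCNA2 was lower (log2 fold change -0.47 ± 0.11). CCND1 was not called (log2 fold change -0.18 ± 0.09, adjusted p = 0.11 by edgeR, called without TL2i library 2, edgeR adjusted p = 0.023). Of the CDK inhibitors, CDKN1C (p57) had 62.6, 59.003 and 66.4 CPM in t2iLGöY and 21.4, 26.5 and 29.2 CPM in TL2i (log2 fold change 1.31 ± 0.14), CDKN2D (log2 fold change 1.99 ± 0.36) and CDKN2C (log2 fold change 1.95 ± 0.61, not called without TL2i library 2 or 3, edgeR adjusted p = 0.088) were higher, and CDKN1A (p21) had 36.5, 31.5 and 28.99 CPM in TL2i and 6.04, 5.76 and 8.65 CPM in t2iLGöY (log2 fold change -2.23 ± 0.21). The germline cyclin CCNA1 was higher (log2 fold change 3.31 ± 0.60).

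CDKN1A is also a target of p53, and of 21 p53 targets and partners 15 were lower and 3 higher, with a median log2 fold change of -1.01. TNFRSF10B, a death receptor, had 59.2, 69.5 and 48.5 CPM in TL2i and 9.51, 2.54 and 4.25 CPM in t2iLGöY (log2 fold change -3.42 ± 0.36). DDB2, of DNA repair, had 42.4, 39.8 and 42.3 CPM in TL2i and 9.37, 9.44 and 8.29 CPM in t2iLGöY (log2 fold change -2.18 ± 0.16), and GADD45A had 57.8, 57.6 and 56.4 CPM in TL2i and 10.6, 14.1 and 13.2 CPM in t2iLGöY (log2 fold change -2.16 ± 0.15). Each of these was at least 3 times higher in every TL2i library than in any t2iLGöY library. The higher members were TP53INP1 (log2 fold change 1.02 ± 0.10), MDM2 (log2 fold change 0.40 ± 0.13, not called without t2iLGöY library 3 or TL2i library 1 or 3, edgeR adjusted p = 0.091 to 0.10) and XPC (log2 fold change 0.27 ± 0.09, not called without t2iLGöY library 2 or 3 or any TL2i library, edgeR adjusted p = 0.056 to 0.11), and 1 of these calls was left without t2iLGöY library 3, TL2i library 1 or TL2i library 3. In the BCL2 family, 6 of 18 were lower and 4 higher. The proapoptotic BAX had 55.6, 55.8 and 50.9 CPM in TL2i and 19.01, 15.1 and 25.0003 CPM in t2iLGöY (log2 fold change -1.44 ± 0.18), and BAK1 (log2 fold change -1.08 ± 0.23) and BOK (log2 fold change -1.07 ± 0.14) were lower. HRK, a proapoptotic gene of neurons, had 24.7, 28.4 and 22.2 CPM in t2iLGöY and 2.05, 2.11 and 2.89 CPM in TL2i (log2 fold change 3.44 ± 0.25), the antiapoptotic BCL2 was higher (log2 fold change 1.84 ± 0.46), as was BMF (log2 fold change 0.53 ± 0.11), and BCL2A1 was higher by a ratio of 166 with a counting interval of 29.4 to 6619.

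Glycolysis and hypoxia genes were lower in 25 of 27 tested and higher in 1, with a median log2 fold change of -1.66. LDHA, which makes lactate, had 1104, 851 and 955 CPM in TL2i and 103, 101 and 99.7 CPM in t2iLGöY (log2 fold change -3.24 ± 0.10, adjusted p = 1.03e-09 by edgeR), and primed libraries had 399, 746 and 1228 CPM. SLC2A3, a glucose transporter, had 756, 1186 and 882 CPM in TL2i and 27.1, 17.2 and 47.6 CPM in t2iLGöY (log2 fold change -4.93 ± 0.31). PFKP, a phosphofructokinase, had 101, 116 and 116 CPM in TL2i and 1.36, 0 and 2.16 CPM in t2iLGöY (log2 fold change -6.56 ± 0.42). The 3 genes were low in each t2iLGöY library. ADM, induced by hypoxia, was at 0 in t2iLGöY and had 8.11, 10.6 and 9.59 CPM in TL2i, at least 136-fold lower, and BNIP3, also induced by hypoxia, had 237, 194 and 199.98 CPM in TL2i and 26.7, 17.1 and 21.97 CPM in t2iLGöY (log2 fold change -3.24 ± 0.16). Enzymes at each step after phosphofructokinase were lower, among them ALDOA (log2 fold change -2.17 ± 0.11), TPI1 (log2 fold change -1.93 ± 0.11), GAPDH (log2 fold change -0.80 ± 0.09), PGK1 (log2 fold change -1.47 ± 0.09), PGAM1 (log2 fold change -2.28 ± 0.16), ENO1 (log2 fold change -1.66 ± 0.09) and PKM (log2 fold change -1.45 ± 0.09). These enzymes were named after their values were seen. The exceptions were HK1, which was higher (log2 fold change 0.57 ± 0.11), and PFKM, which was not called (log2 fold change -0.01 ± 0.10, adjusted p = 0.96 by edgeR).

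Oxidative phosphorylation genes showed no such shift, with 4 higher and 5 lower of 28 and a median of -0.15. No member had a log2 fold change of 1 or more in size. The largest was UQCRC1 (log2 fold change -0.76 ± 0.08), and 1 or 2 members were higher without t2iLGöY library 3 or any TL2i library, and 3 lower without t2iLGöY library 2 or TL2i library 1 or 3. Cholesterol synthesis genes were higher in 11 and lower in 4 of 24, none of the higher ones by 1 or more. NSDHL had 89.2, 86.3 and 106 CPM in t2iLGöY and 54.05, 50.96 and 48.3 CPM in TL2i (log2 fold change 0.90 ± 0.11), whereas the regulator SREBF1 (log2 fold change -0.64 ± 0.14) and the enzyme DHCR7 (log2 fold change -0.42 ± 0.12, not called without TL2i library 3, edgeR adjusted p = 0.058) were lower. Genes of ATF4 and amino acid stress were lower in 11 and higher in 2 of 21. The cystine transporter SLC7A11 had 128, 145 and 109 CPM in TL2i and 11.001, 9.38 and 11.5 CPM in t2iLGöY (log2 fold change -3.56 ± 0.14), and ATF3 (log2 fold change -1.96 ± 0.14), SHMT2 (log2 fold change -1.70 ± 0.10) and SLC7A3 (log2 fold change -1.52 ± 0.23) were lower. DDIT4 (log2 fold change 0.96 ± 0.13) and ALDH1L2 (log2 fold change 2.18 ± 0.52) were higher. Heat shock genes were mixed, 5 higher and 7 lower of 19, or 3 higher without TL2i library 3, from BAG3 (log2 fold change 0.75 ± 0.14) to DNAJB4 (log2 fold change -1.08 ± 0.19). Cytosolic ribosomal protein genes were near equal, 3 higher and 13 lower of 41 with a median of -0.10, or 7 lower without TL2i library 3, and TL2i library 1 was the highest of its group for 32 of the 41. Their extremes were RPS27 (log2 fold change 0.76 ± 0.12) and RPSA (log2 fold change -0.65 ± 0.09). Ribosomal protein genes have many processed copies in the genome, and reads could be divided between them.

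In the list of MYC, LIN28 and let-7 target genes, 12 of 15 were lower and 2 higher, with a median of -0.92. PRTG (protogenin), a receptor of the early neural plate and mesoderm, had 1625, 1881 and 1614 CPM in TL2i and 79.7, 82.4 and 74.4 CPM in t2iLGöY (log2 fold change -4.42 ± 0.09, adjusted p = 1.90e-10 by edgeR), and the TL2i libraries lay far above the primed 61.8, 91.4 and 135 CPM. ARID3A had 87.3, 74.5 and 81.3 CPM in TL2i and 12.8, 17.1 and 12.5 CPM in t2iLGöY (log2 fold change -2.50 ± 0.15). MYC was not called (log2 fold change 0.32 ± 0.21, adjusted p = 0.22 by edgeR, called without t2iLGöY library 2, edgeR adjusted p = 0.0030), MYCN was lower (log2 fold change -2.42 ± 0.15), and MAX (log2 fold change 0.67 ± 0.13) and MYCL (log2 fold change 0.64 ± 0.18, not called without TL2i library 2, edgeR adjusted p = 0.050) were higher, of which 1 was called without TL2i library 2.

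Of 16 imprinted genes, 9 were lower and 5 higher. H19, a maternally expressed noncoding RNA, had 147, 174 and 173 CPM in TL2i and 3.12, 3.28 and 2.38 CPM in t2iLGöY (log2 fold change -5.79 ± 0.15, adjusted p = 2.87e-10 by edgeR). Its neighbour IGF2, a paternally expressed growth factor, had 93.8, 133 and 109.8 CPM in TL2i and 1.63, 2.28 and 1.37 CPM in t2iLGöY (log2 fold change -5.96 ± 0.21, adjusted p = 1.81e-09 by edgeR). Both genes of this locus were thus high together in each TL2i library and low together in each t2iLGöY library. NNAT had 105, 90.9 and 99.6 CPM in TL2i and 5.91, 4.96 and 5.69 CPM in t2iLGöY (log2 fold change -4.14 ± 0.14), and PHLDA2 had 2.29, 2.16 and 2.54 CPM in TL2i and 0.0679, 0 and 0 CPM in t2iLGöY, a ratio of 101 with a counting interval of 17.8 to 4020.3. DLK1, a paternally expressed Notch-related protein, had 164, 195 and 168 CPM in t2iLGöY and 26.4, 39.3 and 31.2 CPM in TL2i (log2 fold change 2.46 ± 0.14), and NDN (log2 fold change 1.76 ± 0.17) and SGCE (log2 fold change 1.02 ± 0.20) were higher. Allelic expression cannot be read from these counts.

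Genes of DNA methylation differed little. Of 14 tested, 5 were higher and 5 lower, and none by 1 or more on the log2 scale. TET2, which oxidizes methylcytosine, had 119.7, 118 and 109 CPM in t2iLGöY and 48.2, 74.5 and 59.4 CPM in TL2i (log2 fold change 0.95 ± 0.14), DNMT1 was lower (log2 fold change -0.42 ± 0.09), UHRF2 was lower (log2 fold change -0.61 ± 0.11), and UHRF1 was not called (log2 fold change -0.08 ± 0.10, adjusted p = 0.52 by edgeR). Interferon-stimulated genes were mostly low. Of 16 tested, 4 were higher, led by USP18 (log2 fold change 4.17 ± 0.97) and IFIT5 (log2 fold change 2.75 ± 0.31), and 2 were lower or 4 without t2iLGöY library 1 or 2. BST2 was at 0 in t2iLGöY and had 5.91, 6.38 and 5.93 CPM in TL2i, at least 88.1-fold lower.

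Levels in the other groups of the series place these genes, as a description without a test. TYRP1 had a mean of 179 CPM in t2iLGöY and at most 0.914 CPM, in 4i/L/b, among the other protocols. OTX1 had a mean of 115 CPM in t2iLGöY and at most 2.53 CPM, in LCDM (EPS), among the others. MITF had a mean of 180.2 CPM in t2iLGöY and at most 8.86 CPM, in LCDM (EPS), elsewhere. Neuronal TUBB3, in contrast, had a mean of 689.9 CPM in LCDM (EPS) and 678 CPM in t2iLGöY. A2M was likewise high in NHSM-v, with a mean of 4191 CPM, and in t2iLGöY, with 4368 CPM. On the TL2i side, PRTG had a mean of 1707 CPM and at most 422 CPM, in TL-CDK8i, among the other protocols. APOA1 had a mean of 176 CPM in TL2i and 28.8 CPM in 4i/L/b, the next highest protocol. FN1 was high in TL2i, NHSM-v, 4i/L/b and TL-CDK8i, with means of 6883, 8740.4, 8988 and 4630.1 CPM. STAT3 was also high in NHSM-v, with a mean of 593 CPM against 779 CPM in TL2i. Of the 3270 genes higher in t2iLGöY, 2294 (70.2%) had a primed mean nearer to that of TL2i, and of the 3358 lower genes 1964 (58.5%) did so, on the log2 scale with 0.5 CPM added.

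**Figure D5:**
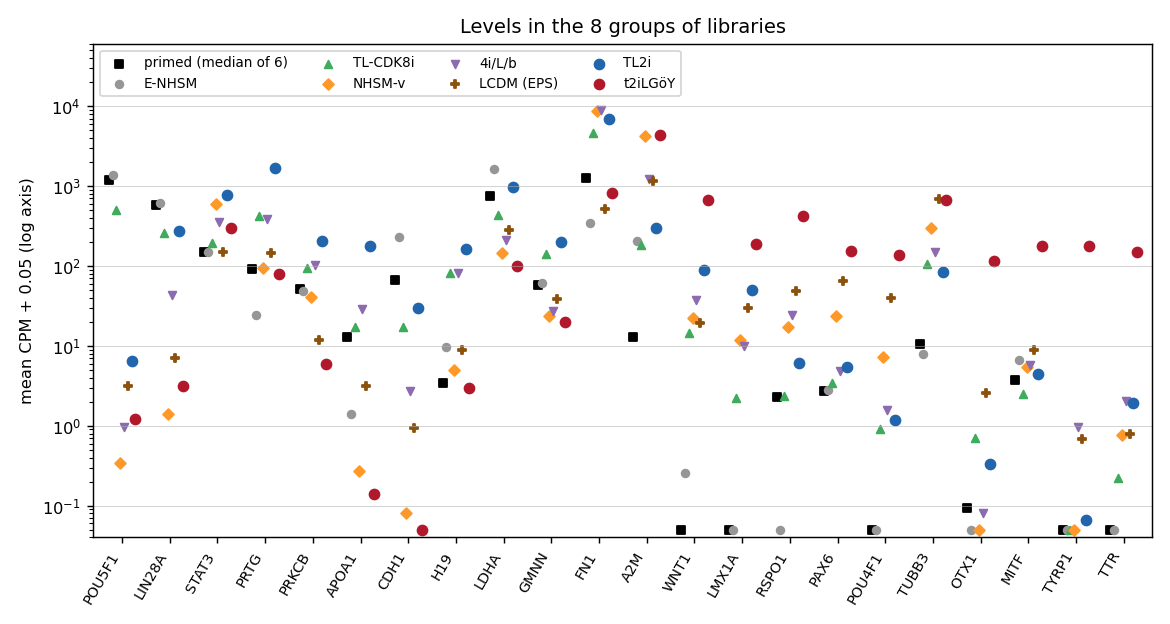
Points are the mean CPM of each of the 7 protocols, and the median of the 6 primed libraries, for 22 genes chosen after their values were seen (log axis, 0.05 CPM added). TYRP1, OTX1, MITF and TTR stand above 100 CPM in t2iLGöY and below 10 CPM in the other 7 groups, whereas PRTG and APOA1 are highest in TL2i.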

How the data were processed

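Bulk RNA-seq of 27 libraries of rhesus macaque embryonic stem cells in 8 groups was taken from gene tables, and the 3 t2iLGöY and 3 TL2i libraries were compared. The labels name a directional mRNA kit started from 200 ng of RNA. The submitters' processing notes name bcl2fastq, cutadapt, HISAT2 and HTSeq, and the genome build, annotation and strand setting are not given in the sources used here. Where strand was not used, reads of overlapping genes cannot be told apart. The values deposited by the authors are raw counts per gene symbol, without normalization. Whether reads from mouse feeder cells were among them was not examined. Depth per library was 12827393 to 19482749 counts, and the chi-square of replicate counts per gene was 8.24 or more, so replicate libraries differed by more than sampling noise.

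Genes were filtered with filterByExpr of edgeR 4.0.16 (R 4.3.3), scaled by TMM and tested with glmQLFit and glmQLFTest (two-sided, Benjamini-Hochberg adjusted p under 0.05) on the 6 libraries. The scaling over 27 libraries used for printed CPM differs from that of the fit by at most 0.0117 on the log2 scale. The scripts were tested on simulated counts. A group with 0 counts was set to a floor of 3 counts over its 3 libraries, and ratios with 1 to 3 counts have exact 95% counting intervals. Medians of lists were the same with such genes at their bound. Alternatives used DESeq2 1.42.0 and limma 3.58.1. Of 1009 list symbols, 963 were found in the tables, and some lists share members. Named were the 15 genes with the largest difference in each direction among called genes with a mean of at least 10 CPM and separate groups, up to 4 called members of each list in each direction, the 5 called genes of highest mean in each direction, the pluripotency and naive lists, and genes that the inhibitors act on. Other list members were chosen after their values were seen. Some genes that this rule names are not reported here. The comparison, lists and members were chosen with earlier results of these data known, so no list has a test of its own.

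Same-numbered libraries did not deviate together (correlations of -0.033 to 0.001), so the replicate numbers were not used as pairs.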

Additional observations from a re-analysis of the deposited data

Results flagged for a closer look

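Outliers were sought with Dixon's test in the 6 primed libraries for the 20 genes whose primed values are given, and in no group of 3. In 3 of the 20 genes the highest primed library lay apart from the others: DUSP6 with 684 CPM, LEF1 with 0.898 CPM and PAX6 with 7.87 CPM. Chance flags about 1 in 20 groups where values are normal and come from 1 population. Most primed libraries had no LEF1 counts, so that rate does not hold for LEF1. The column names of the primed libraries carry the letter J or K, which no label explains, and the libraries were taken as 1 group. The DUSP6 and LEF1 values remain far from those of t2iLGöY and TL2i, while that PAX6 value exceeds the TL2i libraries, which had 4.27 to 6.07 CPM.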

How the results depend on the processing

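The 6628 calls became 6782 with DESeq2, 6619 with upper-quartile scaling, 6883 with no filter, 6119 with at least 10 counts in every library, 6188 with the 8 groups in 1 fit, and 6953 with voom and a quality weight per group, which was chosen after seeing the data. No gene was called in the opposite direction under any of these. With an absolute log2 fold change of at least 1, 2985 genes were called, 1467 higher and 1518 lower. Leaving out 1 library gave 5208 to 6987 calls, 2583 to 3349 higher and 2625 to 3638 lower. With the replicate number as a block 6301 were called, 3044 higher and 3257 lower. No pairing by number was seen in the deviations, where 0 of 6 libraries correlated best with their own number. This check cannot tell whether same-numbered cultures were handled together, and the labels do not say so. Under at least 10 counts in every library the lower counts of several lists fell, to 4 for endoderm and 7 for core pluripotency, because fewer genes with low counts were tested. Signs were compared only for genes named in the text. Among these, leaving out 1 library turned the sign of 6 fold changes, none of them called. Their ranges were -0.0193 to 1.63 for EN1, -0.34 to 0.16 for ERBB3, -0.11 to 0.14 for ID3, -0.0868 to 0.0256 for PFKM, -0.14 to 0.26 for SOX1 and -0.0187 to 0.0987 for YAP1. Low counts in t2iLGöY limit bounds and folds of genes near 0.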
